A study of Mus musculus with 6 samples.

Results

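The genes of the ERK, JNK and p38 kinase cascades were examined in CD4+ T cells cultured with or without ALX-5407, a compound that blocks GlyT1, a transporter of glycine. The 9 genes were a fixed list, chosen with earlier results of these data known and found by gene name among the 54532 genes of the count table. They were the kinases Mapk3, Mapk8, Mapk9 and Mapk14, the kinases that activate such enzymes, Map2k1, Map2k2, Map2k3 and Map2k4, and the upstream kinase Map3k20. All 9 genes passed the filter on low counts and were among the 15938 genes tested. The study reported the MAPK pathway as downregulated with ALX-5407, from enrichment analysis of its RNA sequencing and from Western blot. The counts analysed here give the RNA levels of single genes of that pathway. The cells came from spleens of male C57BL/6 mice aged 6 to 8 weeks and were grown for 72 h under Th1 conditions, the cytokine setting that directs CD4+ T cells toward IFN-γ production. In the 3 control cultures the medium held vehicle (0.1% DMSO), and in the 3 treated cultures it held 500 nM ALX-5407. The series text gives an exposure of 72 h, and the sample labels give 72 h of culture with ALX-5407 treatment. A figure legend of the study describes ALX-5407 in the medium and a Th1 culture of 3 days. The methods of the study give an exposure of 24 h, and the counts do not tell which applied. The labels number the cultures as biological replicates without naming an animal for each. The p-values set the group difference against the spread between these cultures, and whether that includes the spread between mice is not known.

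MAP kinase pathways pass a signal along a chain of 3 kinases, in which a MAP3K phosphorylates a MAP2K and the MAP2K phosphorylates a MAPK. The kinases MEK1 and MEK2 (Map2k1, Map2k2) act on ERK kinases such as ERK1 (Mapk3), MKK4 and MKK7 (Map2k4, Map2k7) act on JNK1 and JNK2 (Mapk8, Mapk9), and MKK3 and MKK6 (Map2k3, Map2k6) act on p38α (Mapk14) and its relatives. ZAK (Map3k20) is a MAP3K known for signalling from stalled ribosomes to p38 and JNK. In T cells these pathways are engaged by the T cell receptor, CD28 and cytokines. Kinase activity is set by phosphorylation, which RNA counts do not measure.

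The libraries held 30801753 to 36727788 counts each. On log2 CPM (counts per gene relative to the library size, scaled by the TMM method), cultures of a group correlated across genes at 0.988 or more, and cultures of different groups at 0.970 or less, and no library stood apart from its group. All 8 T cell identity genes (Cd3d, Cd3e, Cd3g, Cd4, Cd2, Cd5, Lck and Zap70) were present, with a summed level of 2918 to 3139 CPM in the control cultures and 2399 to 2557 CPM with ALX-5407. Of these, 5 were lower and 1 was higher in the treated cultures, at an adjusted p under 0.05 in edgeR. By the same rule 23.2% of all genes tested were lower and 24.5% higher, and the marker counts are to be read against these shares. The 5 Th1 genes (Tbx21, Ifng, Il12rb2, Cxcr3 and Stat4) summed to 1213 to 1394 CPM in control and 984 to 1022 CPM in treated cultures, with 1 higher and 2 lower. Markers of B cells summed to 10.1 to 11.7 CPM in control and 16.5 to 18.7 CPM in treated cultures, with 4 of 7 higher. The 4 NK cell markers summed to 3.80 to 4.30 CPM and 1.33 to 1.65 CPM, and the 2 CD8 markers to 9.25 to 9.59 CPM and 6.71 to 8.87 CPM, respectively. Of the NK markers 1 was tested, and it was lower, as was 1 of the 2 CD8 markers. The 8 myeloid markers summed to at most 1.06 CPM in any culture, with S100a8 and S100a9 at 0. The 5 dendritic cell markers reached at most 4.87 CPM, with Siglech at 0, and the 5 erythroid markers at most 0.91 CPM. The part of these markers in the results below was not tested. In such bulk samples, fewer cells of a type and less RNA per cell cannot be told apart.

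Of the 9 kinase genes, 3 rose and 2 fell in ALX-5407-treated cells. The p38α gene Mapk14, its activator Map2k3 and the MEK2 gene Map2k2 rose, whereas Map3k20 and, by a small margin, the JNK1 gene Mapk8 fell. Mapk3, Mapk9, Map2k1 and Map2k4 did not pass the test. A gene was called at an adjusted p-value under 0.05 in the quasi-likelihood test of edgeR, adjusted by the Benjamini-Hochberg method across the tested genes. By this rule 47.7% of all genes tested were called, 24.5% higher and 23.2% lower, so that 5 of 9 genes lies near the share for any gene. The median log2 change of the 9 genes, which is the value of Map2k1, was 0.0053, as was that of all genes tested. Both values move with the scaling, so their match was not read further. With the fold threshold of the study methods (an absolute log2 fold change over 1) added, Map3k20 alone remained of the 9, against 10.0% of all genes tested. The CPM values of the groups did not overlap for 5 of the 9 genes, and for 55.5% of all genes tested. The exons of these 9 genes do not overlap those of another gene in GENCODE M21, so their counts do not depend on how reads on shared exons were assigned. At 95% identity or more, their longest transcripts matched no other gene over more than 111 bases, a stretch of Map3k20 that matches Zfp668.

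**Figure D1:**
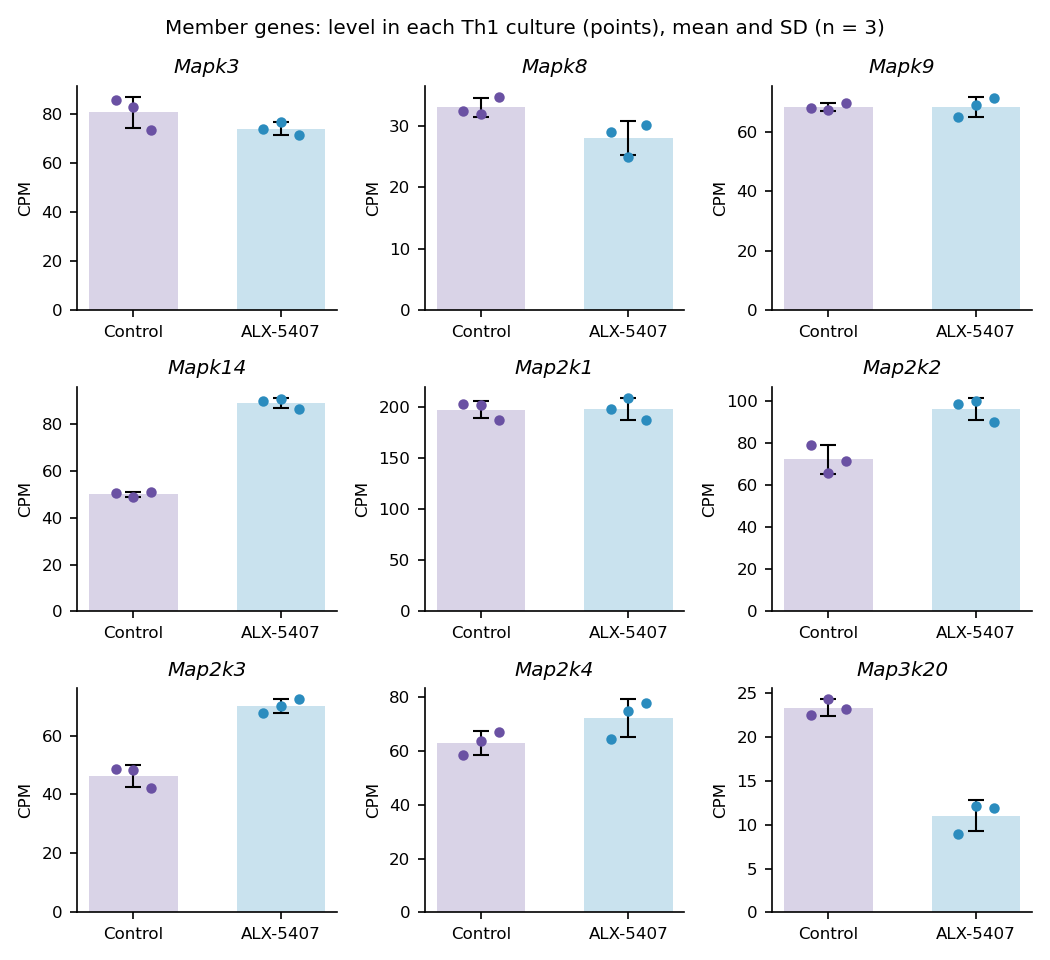
Level of each of the 9 kinase genes in CPM (counts relative to TMM-scaled library sizes, on linear axes from 0) in control (purple) and ALX-5407-treated (blue) Th1 cultures, with points for the 3 cultures of each group, bars for the mean and error bars for the SD. Mapk14, Map2k2 and Map2k3 sit higher in every treated culture and Map3k20 and Mapk8 lower, while the points of the other 4 genes overlap between groups.

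The 3 genes with the largest changes were Map3k20, which fell, and Mapk14 and Map2k3, a kinase and its activator that rose together. The 250 bases that precede the RefSeq start of each (GRCm38.p6) are shown to let their upstream sequence be compared, each on the + strand, with matches to the CCAAT box (CCAAT) and the GC box (GGGCGG) on either strand in capitals. The windows are chr17:28691092-28691341 for Mapk14, chr11:60931804-60932053 for Map2k3 and chr2:72285387-72285636 for Map3k20. The start in the count table lies 13 bases inside the end of the Mapk14 window and 21 bases inside that of Map2k3.
Mapk14: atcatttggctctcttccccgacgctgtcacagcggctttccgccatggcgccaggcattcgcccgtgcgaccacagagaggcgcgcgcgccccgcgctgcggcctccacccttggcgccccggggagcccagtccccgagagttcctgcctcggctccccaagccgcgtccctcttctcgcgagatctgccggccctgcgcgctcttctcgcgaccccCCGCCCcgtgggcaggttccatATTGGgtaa
Map2k3: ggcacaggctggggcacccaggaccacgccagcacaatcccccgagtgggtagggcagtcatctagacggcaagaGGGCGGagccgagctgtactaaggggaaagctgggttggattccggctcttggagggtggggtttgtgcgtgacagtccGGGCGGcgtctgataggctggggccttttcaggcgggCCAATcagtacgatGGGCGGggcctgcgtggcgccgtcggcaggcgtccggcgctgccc
Map3k20: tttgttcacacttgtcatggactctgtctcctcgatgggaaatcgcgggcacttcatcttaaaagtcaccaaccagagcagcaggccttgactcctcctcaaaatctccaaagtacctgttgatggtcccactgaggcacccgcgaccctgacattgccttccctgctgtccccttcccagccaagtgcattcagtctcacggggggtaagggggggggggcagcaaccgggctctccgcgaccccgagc
The Mapk14 window held 1 CCAAT box and 1 GC box, and the Map2k3 window held 1 CCAAT box and 3 GC boxes. The CCAAT box of Mapk14 lies close before the RefSeq start but past the start in the count table, thus inside the gene as counted. Neither motif occurs in the Map3k20 window, nor in that of Map2k4, which was not called. The window of Map2k1, also not called, held 2 CCAAT boxes and 4 GC boxes. That of Map2k2, which rose, held 0 CCAAT boxes and 1 GC box, so the motifs did not follow the direction of change. Over the first listed windows of 27025 genes, 34.5% held a CCAAT box and 32.9% a GC box, so such matches are common. The matches to the CRE (TGACGTCA, 1.62% of windows), the AP-1 motif (TGANTCA, 6.87%), the ATF4 composite element (TGATGNAAN, 3.51%), the E-box (CACGTG, 6.05%) and an ETS motif (CCGGAAG, 7.05%) numbered 0 in the windows of the 8 genes with an entry. Matches of different motifs did not overlap in these windows, and Mapk3 had no entry. A match is a description of the letters and not a binding site. The JNK genes differed in this respect, with 7 GC boxes upstream of Mapk8 (79.2% G and C) and 1 GC box and 2 CCAAT boxes upstream of Mapk9 (63.6% G and C).

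Genes of the p38 cascade were compared first. Mapk14 (ENSMUSG00000053436, chromosome 17, 28691329 to 28748406, + strand, GRCm38, 10 annotated transcripts) encodes p38α, the main p38 kinase of most cells. Its level was 50.5, 48.9 and 50.9 CPM in the control cultures and 90.1, 90.8 and 86.6 CPM in the treated cultures. Every treated culture lay far above every control culture, and replicates differed by only a few CPM. The means were 50.1 ± 1.07 and 89.2 ± 2.26 CPM (SD, n = 3 each), a 1.78-fold rise with a log2 change (ALX-5407 minus control) of 0.83 (standard error 0.0705, 95% interval 0.68 to 0.98, adjusted p = 1.21e-07, edgeR).
Map2k3 (ENSMUSG00000018932, chromosome 11, 60932033 to 60952811, + strand) encodes MKK3, which phosphorylates p38 kinases. It was counted at 48.6, 48.2 and 42.1 CPM in control and 67.7, 70.0 and 72.5 CPM in treated cultures. Again the groups did not overlap, with the third control culture the lowest of all 6. The 1.51-fold rise had a log2 change of 0.60 (standard error 0.0789, 95% interval 0.43 to 0.76, adjusted p = 1.22e-05, edgeR).
The other p38 activator, Map2k6 (MKK6), fell from 22.0 ± 1.09 to 16.4 ± 1.07 CPM (SD, n = 3 each), with a log2 change of -0.42 (standard error 0.0989, adjusted p = 0.00215, edgeR). The gene of p38β, Mapk11, was at 33.8 ± 1.23 and 38.0 ± 0.913 CPM (SD, n = 3 each), with a log2 change of 0.17 (adjusted p = 0.0906, edgeR). Mapk12 (p38γ) and Mapk13 (p38δ) were low, with at most 4.34 CPM in any culture. Their log2 changes of 0.47 (adjusted p = 0.0817, edgeR) and 0.79 (adjusted p = 0.0641, edgeR) did not pass the test and had wide intervals, from 0.017 to 0.92 and from 0.076 to 1.5.

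In the ERK cascade, the MEK2 gene rose while those of MEK1 and ERK1 were not called. Map2k2 (ENSMUSG00000035027, chromosome 10, 81105915 to 81133975, + strand) was at 79.2, 65.8 and 71.4 CPM in control and 98.3, 99.98 and 89.98 CPM in treated cultures. The groups did not overlap, although the control cultures spread more widely than those of Mapk14. The 1.33-fold rise had a log2 change of 0.41 (standard error 0.0811, 95% interval 0.24 to 0.59, adjusted p = 0.000515, edgeR).
Map2k1 (ENSMUSG00000004936, chromosome 9, 64185770 to 64253631, - strand), which encodes MEK1, was the most abundant of the 9 genes. Its values of 202.6, 201.5 and 187.2 CPM in control and 198.0, 208.6 and 187.0 CPM in treated cultures overlapped throughout. The log2 change was 0.0053 (95% interval -0.15 to 0.16, adjusted p = 0.961, edgeR), and its sign changed with the scaling (-0.0082 with RLE size factors).
Mapk3 (ENSMUSG00000063065, chromosome 7, 126759601 to 126765819, + strand), which encodes ERK1, was at 85.7, 83.2 and 73.8 CPM in control and 74.2, 76.7 and 71.6 CPM in treated cultures. The third control culture lay among the treated ones, and the other two above them. The log2 change was -0.13 (standard error 0.0767, 95% interval -0.29 to 0.037, adjusted p = 0.195, edgeR). Without the third control culture it was -0.20 (adjusted p = 0.0234, edgeR), which passes the threshold.

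In the JNK cascade, Mapk8 was slightly lower and Mapk9 differed little. Mapk8 (ENSMUSG00000021936, chromosome 14, 33377898 to 33447158, - strand), which encodes JNK1, was at 32.3, 31.8 and 34.7 CPM in control and 29.0, 24.8 and 30.1 CPM in treated cultures. The groups were separate by less than 2 CPM, and the second treated culture was the lowest. The log2 change was -0.24 (standard error 0.0929, 95% interval -0.43 to -0.039, adjusted p = 0.0462, edgeR). This call is at the edge of the threshold: the adjusted p was 0.0579 in DESeq2, 0.0761 in edgeR without a filter on low counts and 0.144 in edgeR with total library sizes, and 0.263 in edgeR without the second treated culture, where the log2 change was -0.15.
Mapk9 (ENSMUSG00000020366, chromosome 11, 49846751 to 49886421, + strand), which encodes JNK2, was at 67.8, 67.4 and 69.7 CPM in control and 64.8, 69.0 and 71.4 CPM in treated cultures. The treated values lay on both sides of the control values. The log2 change was 0.0019 (95% interval -0.15 to 0.15, adjusted p = 0.986, edgeR). Its sign depended on the setting, and in DESeq2 it was -0.0031. Mapk10 (JNK3), a kinase of the nervous system, had 0 counts in 5 cultures and 8 counts in the first treated culture and was not tested.
Map2k4 (ENSMUSG00000033352, chromosome 11, 65688243 to 65788297, - strand) encodes MKK4, an activator of JNK that also acts on p38. It was at 58.3, 63.5 and 66.9 CPM in control and 64.3, 74.8 and 77.9 CPM in treated cultures. The first treated culture lay within the control range and the other two above it. The log2 change of 0.20 (standard error 0.0851, 95% interval 0.021 to 0.38, adjusted p = 0.0619, edgeR) did not pass the test. The call changed with the setting, as the adjusted p was 0.0226 in edgeR with total library sizes, 0.0466 without a filter on low counts, 0.0335 without the third control culture and 0.0203 without the first treated culture.
The other JNK activator, Map2k7 (MKK7), fell from 95.5, 116.0 and 69.7 CPM in control to 50.6, 49.1 and 46.7 CPM in treated cultures. The control cultures differed widely from each other, yet each lay above every treated culture. The log2 change was -0.94 (standard error 0.128, 95% interval -1.21 to -0.67, adjusted p = 1.62e-05, edgeR), and it lay between -1.13 and -0.77 with 1 culture left out. The gene Gm49320, with 0 counts in every culture, shares 35.2% of the exon bases of Map2k7 on the same strand, so the level of Map2k7 is uncertain.

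**Figure D2:**
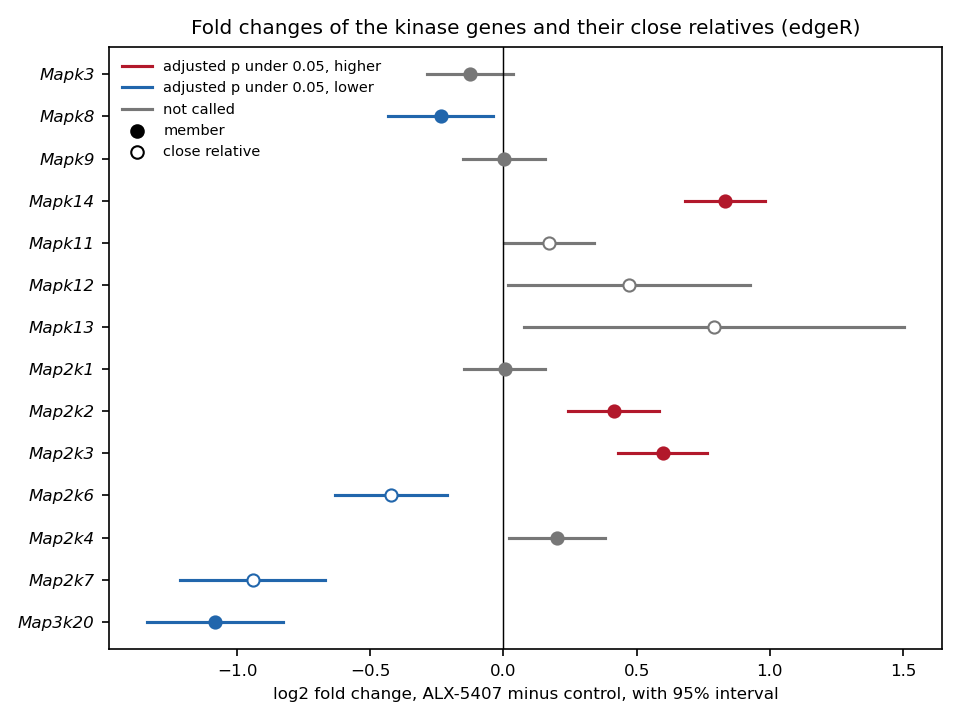
Log2 fold change (ALX-5407 minus control) of the 9 kinase genes (filled points) and their close relatives (open points), with 95% intervals from edgeR; red and blue mark genes called higher and lower at an adjusted p under 0.05. Mapk14 (0.83) and Map2k3 (0.60) lie to the right, Map2k7 (-0.94) and Map3k20 (-1.08) to the left, and Mapk9 and Map2k1 at 0.

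Map3k20 showed the largest change of the 9 genes. Map3k20 (ENSMUSG00000004085, chromosome 2, 72285637 to 72442610, + strand, 6 annotated transcripts with up to 20 exons) was counted 733, 763 and 712 times in control and 316, 454 and 417 times in treated cultures. Scaled to library size, these counts were 22.5, 24.3 and 23.1 CPM and 8.95, 12.2 and 11.9 CPM. The control cultures were close together, and the highest treated culture was far below the lowest of them. The level was 2.12-fold lower with ALX-5407, with a log2 change of -1.08 (standard error 0.12, 95% interval -1.34 to -0.83, adjusted p = 1.99e-06, edgeR). It lay between -1.16 and -0.95 over all alternatives, with a highest adjusted p of 3.30e-05 (edgeR). Without the first treated culture, the log2 change was -0.95, so the fold threshold of the study methods was then no longer met. The count table sums all transcripts of a gene, so the long and short forms of ZAK were not separated.
Over the 6 cultures, the tested genes with the profile most like that of Map3k20 were the processed pseudogene Gm5781, Thbs3 and Ak1. Their centred log2 CPM differed from that of Map3k20 by a root mean square of 0.0816, 0.0898 and 0.0926. All 3 were expressed at lower levels, with means of 1.21, 5.55 and 2.33 CPM in control and 0.576, 2.75 and 1.10 CPM in treated cultures. Their log2 changes were -1.06, -1.01 and -1.09 (standard errors 0.355, 0.179 and 0.261). Gm5781 was not called without the second control culture or without the first treated culture. Among 15938 genes and 6 cultures some profiles will lie close, so the likeness was not read further.

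To compare levels between genes, CPM were divided by the gene length in kilobases (RPKM). This length covers the merged exons of all annotated transcripts of a gene, not the transcripts the cells expressed. The order of the genes and the size of the shares below depend on it. In control cultures Map2k1 was the highest, at 58.1 ± 2.53 RPKM, followed by Mapk3 at 35.8 ± 2.79 RPKM (SD, n = 3 each). Map2k3 (14.0), Map2k4 (13.5), Map2k2 (12.7) and Mapk14 (11.5 RPKM) came next, and neighbours in this order had overlapping ranges. Mapk9 (10.1), Mapk8 (2.88) and Map3k20 (2.29 RPKM) were lower, each with a range apart from that of the gene above it. In treated cultures Map2k1 and Mapk3 were again the highest, at 58.3 ± 3.19 and 32.9 ± 1.14 RPKM (SD, n = 3 each). Map2k3 (21.1) and Mapk14 (20.4 RPKM) followed with overlapping ranges, then Map2k2 (17.0) and Map2k4 (15.5 RPKM), which also overlapped. Mapk14 thus stood at position 4 in treated cultures and at position 6 in control cultures. At the low end, Mapk9 (10.1), Mapk8 (2.45) and Map3k20 (1.08 RPKM) stood in the same order as in control cultures.

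Since related kinases can act on the same substrates, the share of each member in the summed RPKM of its relatives was computed within each culture, which needs no scaling between libraries. Mapk14 held 47.3, 47.8 and 46.9% of the p38 genes (Mapk14, Mapk11, Mapk12 and Mapk13) in control and 58.2, 58.4 and 57.5% in treated cultures. By this measure Mapk11 was level with Mapk14 in control cultures (means of 11.7 and 11.5 RPKM) and below it in treated cultures (13.2 and 20.4 RPKM). The difference was 10.7 percentage points, and the summed p38 level rose from 24.2 ± 0.738 to 35.1 ± 0.59 RPKM (SD, n = 3 each) without overlap.
Map2k3 held 70.8, 69.0 and 65.7% of the pair Map2k3 and Map2k6 in control and 80.0, 81.7 and 83.0% in treated cultures, a difference of 13.0 percentage points. Their sum rose from 20.4 ± 0.898 to 25.9 ± 0.417 RPKM (SD, n = 3 each).
Map2k4 held 33.4, 31.0 and 44.0% of the pair Map2k4 and Map2k7 in control and 51.1, 55.6 and 57.8% in treated cultures, a difference of 18.7 percentage points. It rests on the level of Map2k7, which is uncertain because its exons are shared in part with Gm49320. The third control culture stood between the others and the treated cultures. The summed level of the pair went from 38.0 ± 5.70 to 28.2 ± 1.08 RPKM (SD, n = 3 each) without overlap.
Mapk8 held 22.2 ± 0.484% of the JNK pair Mapk8 and Mapk9 in control and 19.5 ± 1.74% in treated cultures (SD, n = 3 each). The summed RNA of the pair was 12.8, 12.7 and 13.3 RPKM in control and 12.1, 12.3 and 13.2 RPKM in treated cultures, and these ranges overlapped.
Map2k1 held 82.0 ± 1.41% of the pair Map2k1 and Map2k2 in control and 77.5 ± 0.335% in treated cultures (SD, n = 3 each).
For each of these 5 shares the groups did not overlap, and the two-sided exact permutation test gave p = 0.1 (0.1 after Benjamini-Hochberg adjustment over 5 tests), the smallest p that 3 against 3 cultures allow. None of the shares could therefore reach 0.05. The CPM of the groups did not overlap for 55.5% of all single genes tested, and the share for unrelated sets of genes was not computed. Each of the 5 sets includes a gene whose own CPM did not overlap, so the shares are not results apart from those of the genes.

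**Figure D3:**
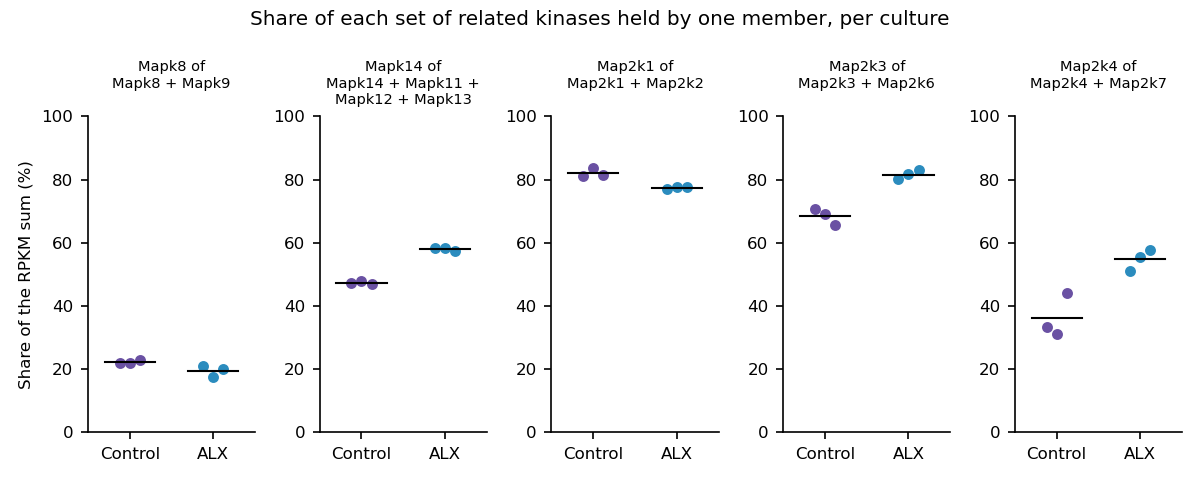
Share (%) of the summed RPKM of related kinases held by Mapk8, Mapk14, Map2k1, Map2k3 and Map2k4 in each control (purple) and ALX-5407-treated (blue) culture; points are cultures, lines are means (n = 3), and each axis runs from 0 to 100. The shares of Mapk14, Map2k3 and Map2k4 are higher in treated cultures, by 10.7, 13.0 and 18.7 percentage points, and those of Mapk8 and Map2k1 are lower.

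The other genes of the pathway were taken from 7 lists written from general knowledge, with earlier results of these data known. Of their 84 genes, 78 were tested, 21 were higher and 17 lower, and 40 were not called. The share called, 48.7%, is close to the 47.7% of all genes tested, and the median log2 change was 0.094, against 0.0053 for all genes tested. Counts by direction in the lists below are to be read against shares of 24.5% higher and 23.2% lower among all genes tested. Among MAP3Ks outside the member list, 7 of 21 were higher and 5 lower, with a median of 0.17 that changed sign without a filter on low counts (-0.05), at a mean CPM of at least 5 (-0.11) and in DESeq2 (-0.066). With 1 culture left out this median lay between 0.064 (without the third control culture) and 0.24, and the MAP3Ks called lower numbered 3 without the first control or the third treated culture and 2 without the second treated culture. Map3k5 (ASK1, an activator of the p38 and JNK cascades under stress) rose from 56.7 ± 1.73 to 97.1 ± 0.809 CPM (SD, n = 3 each), and its log2 change was 0.78 (adjusted p = 2.13e-07, edgeR). Araf, a RAF kinase of the ERK cascade, fell from 161 ± 2.99 to 116 ± 5.56 CPM (SD, n = 3 each), and its log2 change was -0.48 (adjusted p = 3.04e-05, edgeR). Map3k20 had a larger fold change than any of these 21 genes except Map3k6, which was low (2.06 and 0.943 CPM) and fell by 1.13 on the log2 scale (adjusted p = 0.00858, edgeR). Map3k6 was named after its values were seen.
Among MAP4Ks, kinases that act above the MAP3Ks, 2 of 7 were higher and 4 lower. The lowest p in each direction belonged to Map4k1 (0.39, adjusted p = 0.000227, edgeR) and Map4k4 (-0.45, adjusted p = 0.00015, edgeR), and the median was -0.27. Of the 17 tested scaffolds and MAP3K partners, 2 were higher and 5 lower, with a median of -0.075 that was 0.033 without the first control culture and 0.038 without the first treated culture. Without the first or the second control culture 1 scaffold was higher, and 3 were lower without the first treated culture and 2 without the second. The scaffold of the ERK cascade Ksr1 rose by 0.83 on the log2 scale (adjusted p = 3.15e-07, edgeR). Mapk8ip3, a scaffold that binds JNK and its upstream kinases, fell from 515 ± 31.1 to 253 ± 15.6 CPM (SD, n = 3 each), and its log2 change was -1.02 (adjusted p = 2.73e-08, edgeR).
Of the 13 genes of Ras and its activators in T cells, 5 were higher and 1 was lower, with a median of 0.12. The genes called higher fell to 3 without the second control, the third control or the first treated culture and to 2 without the second or the third treated culture, and the median lay between 0.073 (without the third control culture) and 0.16 with 1 culture left out. Rasgrp1, a Ras exchange factor, rose by 0.78 on the log2 scale (adjusted p = 2.70e-07, edgeR), and Plcg1, the phospholipase that acts above it, fell by 0.51 (adjusted p = 1.82e-05, edgeR). Of the 10 kinases downstream of MAPKs, 4 were higher, with the lowest p for the ERK target Rps6ka1 (0.81, adjusted p = 2.16e-07, edgeR), and 0 were lower in edgeR. At an unadjusted p under 0.05, 1 was lower, Rps6ka3, and DESeq2 and limma-voom each called 1 gene of the list lower, as did edgeR without the second control culture. The median of these kinases was 0.18 and that of the other MAP2Ks -0.42. That of the other MAPKs was 0.17, but 0.40 without a filter on low counts, 0.39 in DESeq2 and 0.053 at a mean CPM of at least 5. Of the 7 other MAPKs tested, 1 was higher, the ERK3 gene Mapk6 (0.39, adjusted p = 0.000315, edgeR), and 0 were lower in edgeR, in DESeq2 and in limma-voom, as well as at an unadjusted p under 0.05 in edgeR. Without the first control culture 2 of them were higher, and without the first treated culture 2 were higher and 1 was lower. Of the 3 other MAP2Ks, Map2k6 and Map2k7 were lower, and Map2k5 had a log2 change of 0.039 (adjusted p = 0.769, edgeR).

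**Figure D4:**
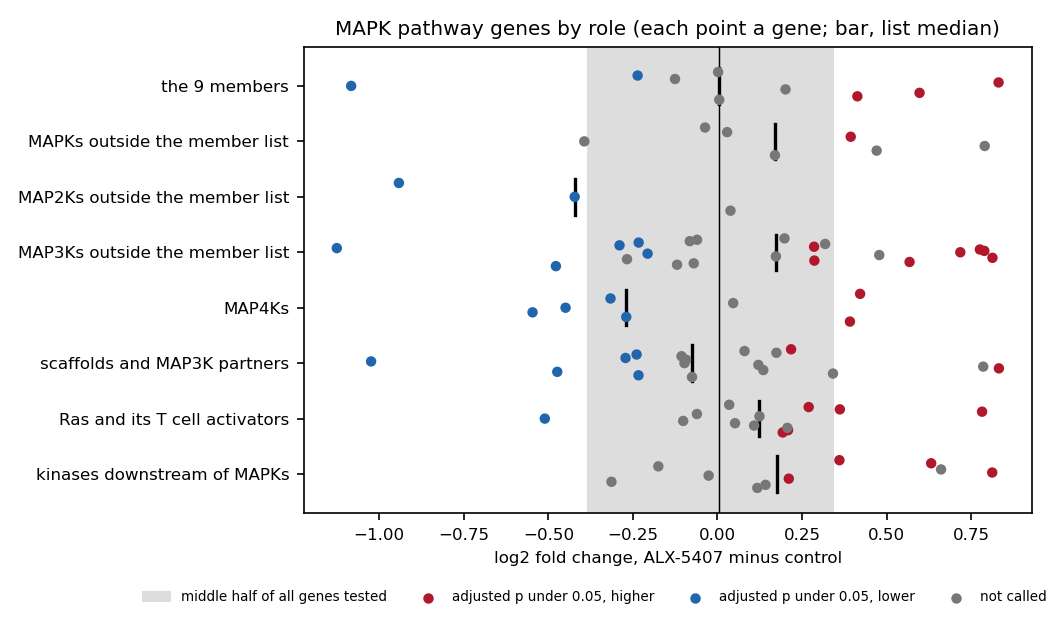
Log2 fold change (ALX-5407 minus control) of each tested gene of the 9 members and of 7 other lists of the pathway, by role; red and blue mark genes called higher and lower in edgeR, the black bars the list medians, and the grey band the interquartile range of all genes tested. Genes called in each direction stand in most lists, and Map3k20, Map3k6 and Mapk8ip3 are the points beyond -1.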

How the data were processed

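RNA from 6 CD4+ T cell cultures was sequenced, and the authors deposited raw counts per gene with gene lengths. Per the submitters' processing notes, the tools were fastp, HISAT2 2.0.5 and featureCounts 1.5.0-p3 with the build mm10, and the strand setting is not given in the sources used here. The labels describe poly-T bead selection and the study methods rRNA depletion. Genes were filtered with filterByExpr (minimum count 10, minimum total 15), scaled by TMM and compared between the 3 control and the 3 ALX-5407 cultures with the quasi-likelihood test of edgeR 4.0.16 (R 4.3.3), with Benjamini-Hochberg adjustment over 15938 genes. The biological coefficient of variation was 0.0978. Totals of 30801753 to 36727788 counts were deposited per culture. Over all genes, the spread between cultures was larger than counting error, with a chi-square per degree of freedom of 5.35 to 20.2. Whether this holds for each single gene, such as those with few counts, was not tested. CPM and RPKM were computed from the counts. The test was also run on simulated counts in which only a small part of the genes changed. In the real data 47.7% of genes were called, so that run does not vouch for the calls or the scaling here.

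The members and lists were chosen with earlier results of these data known. All members were named, with their close relatives, the called gene of lowest p in each direction of each pathway list, and the 3 tested genes nearest in profile to Map3k20. Alternatives were RLE, upper-quartile and total-count scaling, no filter, a mean CPM of at least 5, protein-coding genes alone, DESeq2 1.42.0, limma-voom (limma 3.58.1), a replicate block, the fold threshold, and each culture left out. Gene models were taken from GENCODE M21 and compared with BLAST 2.17.0, and upstream sequences from RefSeq GRCm38.p6. Protein sequences were not used here, and 1 relative of the members and 1 marker are not reported here.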

Additional observations from a re-analysis of the deposited data

How the results depend on the processing

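With the cultures left out 1 at a time and under every alternative other than the added fold threshold, Mapk14, Map2k3, Map2k2 and Map3k20 kept their direction and their call. Mapk8 lost its call with total library sizes (log2 fold change -0.18), without a filter on low counts (-0.23) and in DESeq2 (-0.24), and with 1 culture left out it ranged from -0.29 to -0.15 and was called without the third treated culture alone. Map2k4 was called with total library sizes (0.26) and without a filter (0.21), and ranged from 0.14 to 0.28 with 1 culture left out. Mapk3 ranged from -0.20 to -0.090. The sign of Mapk9, never called, turned with RLE factors (-0.011), upper-quartile factors (-0.052), a mean CPM of at least 5 (-0.045), DESeq2 (-0.0031) and protein-coding genes alone (-0.046), and ranged from -0.024 to 0.045 with 1 culture left out. Map2k1, also never called, turned with RLE factors (-0.0082), upper-quartile factors (-0.048), a mean CPM of at least 5 (-0.041) and protein-coding genes alone (-0.042), and ranged from -0.047 to 0.050. The cause of these changes was not tested. No scaling moved the median of all genes by over 0.1.

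Of the 9 members, 1 was lower with total library sizes, without a filter and in DESeq2, and 1 to 2 with 1 culture left out. With the fold threshold added, 0 members were higher and 1 was lower. The same threshold left 0 higher in the lists of other MAPKs, MAP3Ks, MAP4Ks, scaffolds, Ras and its activators and downstream kinases. It left 1 lower MAP3K, 1 lower scaffold, and 0 lower other MAP2Ks, MAP4Ks and Ras genes. Of all 15938 genes tested, the threshold left 536 higher and 1064 lower, together 10.0%. Counts of 0 or 1 in lists this short were therefore not read further. With total library sizes, 3 other MAPKs were higher and 3 MAP3Ks lower, and without a filter 2 other MAPKs were higher. With upper-quartile factors, a mean CPM of at least 5 and protein-coding genes alone, 1 scaffold was higher, and 2, 3 and 3 Ras genes. Of the downstream kinases, 1 was lower with RLE factors, upper-quartile factors, a mean CPM of at least 5, DESeq2, limma-voom, the replicate block and protein-coding genes alone. With 1 culture left out, 0 to 1 other MAPKs, 2 to 5 MAP3Ks, 2 to 6 scaffolds and 0 to 1 downstream kinases were lower, and 1 to 2 other MAPKs, 1 to 3 scaffolds and 2 to 5 Ras genes were higher.

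Cultures with the same replicate number did not deviate together across genes (correlations of deviations of -0.0084, 0.0036 and 0.063), so the numbers were not taken as a pairing. With a replicate block, Map2k4 was called (0.20, adjusted p = 0.0232, edgeR), no other member changed its call, and 4071 genes were higher and 3833 lower, against 3910 and 3695 without it. The 5 shares, tested by exact sign flips of same-numbered differences, gave p = 0.25, the smallest that 3 differences allow.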
